A study of Actinidia chinensis with 4 samples.

Results

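In the flesh of the red-centred kiwifruit Actinidia chinensis cv. Hongyang, 245 of 39760 gene models were higher in the inner or the outer pericarp together with the gene model next to them in the annotation's numbering. They were selected on the measured values of the tissues themselves. A gene model counted as biased when its higher tissue averaged 5 CPM or more (CPM being the count divided by the library's total, times 1000000), its tissue means differed at least 1.5-fold, and no library of the higher tissue was at or below a library of the lower one. It was kept when a gene model whose running number differed by 1, in the same 2-digit identifier group, was biased the same way. The difference between the tissues is therefore described and not tested for these gene models. Whether neighbours share it more often than gene models farther apart, and what else neighbours share, was not fixed by that choice.

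The samples were inner and outer pericarp of Hongyang fruit taken 90 days after anthesis from plants grown under natural conditions, with 2 RNA-seq libraries of total RNA for each tissue. The inner pericarp is the flesh around the core, which turns red in this cultivar, and the outer pericarp is the flesh beneath the skin. The series sought regulators, named in its title as MYB and bHLH proteins, of the anthocyanin pigment made in the inner part. Nothing in the labels says that libraries of a tissue came from separate fruits, so the spread between them may be technical. In whole pieces of flesh, fewer cells of a type and less RNA per cell cannot be told apart.

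Genes that lie side by side in plant genomes often derive from tandem duplication, in which a copy is laid down next to its source, and such copies may keep similar lengths and similar regulation. Neighbours that are unrelated in sequence can also share activity, for example through a promoter region between them, through common chromatin, or as parts of a biosynthetic gene cluster. Anthocyanins are flavonoid pigments, and their pathway genes are switched on by complexes of MYB, bHLH and WD40 proteins. None of these roles could be assigned here, because the count table gives identifiers without names, positions or functions. Being next to each other means consecutive numbers only, and distance or orientation on a chromosome was not analysed here. Likewise, tissue markers could not be looked up, so seed in the inner samples or skin in the outer samples was not checked.

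Without the gene model Ach00g022471.2, which had 0 counts in inner pericarp replicate 1 and between 771945 and 939209 in the other libraries, the inner libraries summed to 5668276 and 5789006 counts, and the outer ones to 5677770 and 5228147. CPM values were taken over these totals. At these depths 0 counts in both libraries of a tissue allow up to 0.262 CPM in inner and 0.275 CPM in outer pericarp (a floor of 3 counts over both libraries). The 245 gene models held a similar share of each tissue's counts, 3.395% ± 0.016 for inner and 3.15% ± 0.13 for outer pericarp (SD, n = 2 each).

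Of the 245, the direction was inner-higher for 65 and outer-higher for 180. Over all 14849 gene models that reached 5 CPM in a tissue, 1057 (7.12%) met the bias rule towards inner pericarp and 1746 (11.8%) towards outer pericarp. The members made up 6.15% of the inner-biased gene models (exact 95% interval 4.78% to 7.77%) and 10.3% of the outer-biased ones (8.92% to 11.8%). These intervals cover counting error only and treat gene models as independent. A biased gene model often had no measurable partner: 42 inner-biased and 82 outer-biased gene models had no neighbouring number in the table, and 437 and 684 had neighbours that were all below 5 CPM. Among those with a neighbour at 5 CPM or more, 11.2% of the 578 inner-biased and 18.4% of the 980 outer-biased gene models had a like-biased neighbour.

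The surplus of outer-higher members depended on scaling by column totals. Under that scaling the median log2 ratio of inner over outer pericarp across the 14849 gene models was -0.07. With TMM-scaled library sizes, which centre most gene models near no difference, the median was 0.01 and the members numbered 112 in each direction. With median-of-ratios sizes there were 108 inner-higher and 112 outer-higher members. In the background the inner-higher share of biased gene models moved in the same way, from 37.7% with column totals to 49.7% with TMM. Of the members chosen with column totals, 63 inner-higher and 112 outer-higher gene models were chosen under all 3 scalings. None changed direction, but the sizes shifted too little to reverse a 1.5-fold difference. The surplus also depended on which outer library was used. Without outer pericarp replicate 1 it was larger, with 82 inner-higher and 320 outer-higher members. Over all gene models at 5 CPM or more, 7.74% were then inner-biased and 16.1% outer-biased. Without outer pericarp replicate 2 it was small, with 137 and 154, beside background shares of 10.4% and 10.8%. The background thus moved in the same direction as the members.

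**Figure D1:**
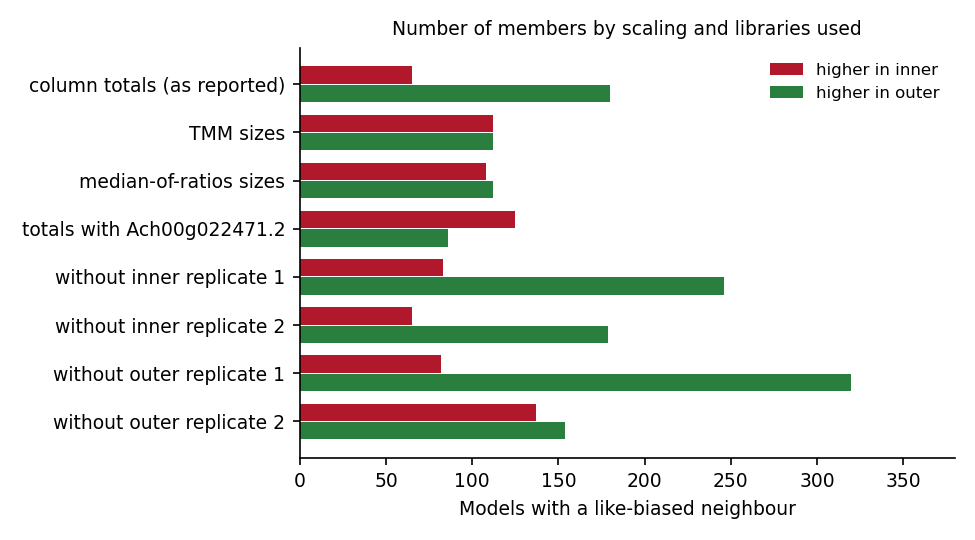
Number of gene models with a like-biased neighbour (horizontal axis) that were higher in inner pericarp (red) or outer pericarp (green), under 4 scalings and without each library in turn. The counts were 65 and 180 with column totals, 112 and 112 with TMM sizes, and 82 and 320 without outer pericarp replicate 1.

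Adjacent gene models shared a direction somewhat more often than gene models at the median of the farther distances. There were 4975 adjacent pairs in which both gene models reached 5 CPM. Of these, 33 were both inner-higher, 91 were both outer-higher and 82 were biased in opposite directions. Taking each end of a pair in turn, the gene model next to an inner-biased one was also inner-biased in 9.30% of cases, and the one next to an outer-biased one was also outer-biased in 15.1%. For partners 2 to 20 numbers away the same shares had medians of 7.20% (range 5.09% to 13.4%) and 11.8% (range 9.65% to 16.3%). The adjacent position was thus above the median of the farther ones in both directions, but not outside their range: 4 of the 19 farther distances were at or above it for inner and 1 of 19 for outer pericarp. At a distance of 2 the inner share was 11.9%, higher than at the adjacent position, and the outer share was 12.6%. With TMM sizes the adjacent shares were 12.5% and 12.0%, the medians farther away were 9.60% and 9.13%, and 2 of 19 farther distances reached the adjacent share in each direction.

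Opposite directions met about as often at distance 1 as at the median of the farther distances. An outer-biased gene model stood next to 11.5% of the inner-biased ends, against a median of 10.9% at the farther distances, and the share of inner-biased partners beside outer-biased ends was 6.82% against 6.56%. Across the 4975 adjacent pairs the log2 ratios of both gene models correlated weakly, with Pearson's r of 0.07 and Spearman's rho of 0.05. At distances 2 to 20 Pearson's r ran from -0.02 to 0.06. These correlations are across gene models that share the same libraries and carry no test. As a further comparison, 136 pairs had consecutive numbers but different identifier groups, and of these 1 was both inner-higher, 2 were both outer-higher and 3 were opposite. Their like-biased shares were 9.09% of 22 inner-biased ends and 14.8% of 27 outer-biased ends. These few ends gave shares close to the 9.30% and 15.1% of adjacent pairs within a group.

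**Figure D2:**
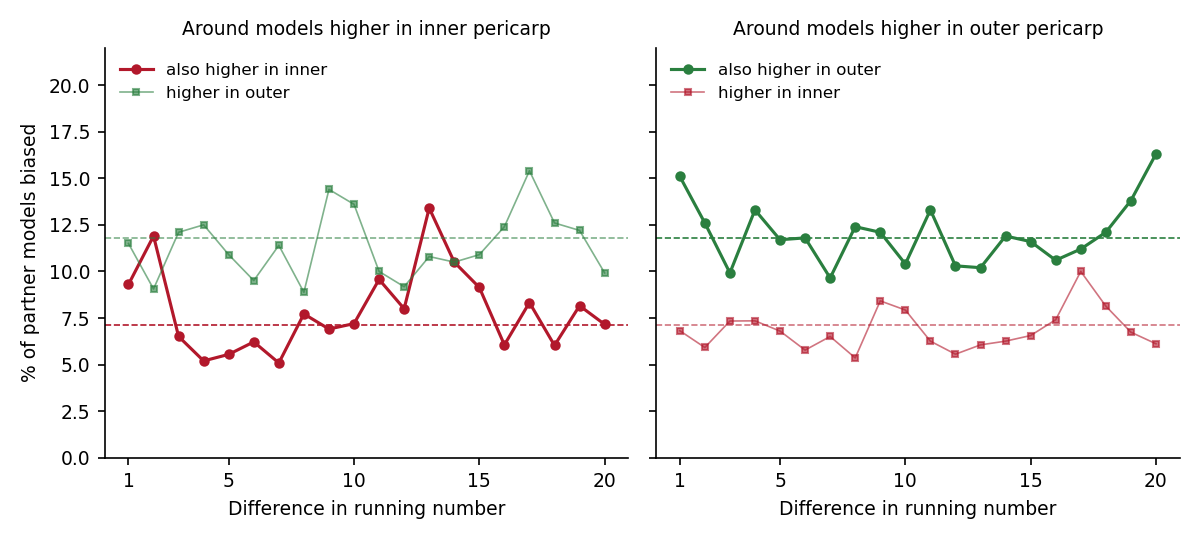
Share of partner gene models (%, both at 5 CPM or more) that were biased, against the difference in running number, around gene models higher in inner pericarp (left) and in outer pericarp (right); red marks partners higher in inner, green partners higher in outer pericarp. Dashed lines are the shares over all 14849 gene models, 7.12% and 11.8%; at a difference of 1 the like-biased shares were 9.30% and 15.1%.

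In the scatter of neighbours' log2 ratios the member pairs lay away from both axes, which the 1.5-fold limit required. Some pairs with 1 biased gene model lay farther out along an axis. Most adjacent pairs had no bias at all (3269) or a bias in 1 gene model only (1500). Within a run, a maximal chain of consecutive members, the largest fold was under 1.5 times the smallest in 22 of 32 inner runs and in 60 of 89 outer runs, with medians of 1.249 and 1.221 for that quotient. Over all 4975 adjacent pairs the inner-to-outer ratios of both gene models differed by less than 1.5-fold in 3230, a share close to that of the runs. Because every member had to pass 1.5-fold, and many lie near it, such likeness is in part set by the choice. In 8 inner and 21 outer runs every gene model differed at least 2-fold, and in 3 inner and 3 outer runs at least 4-fold.

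**Figure D3:**
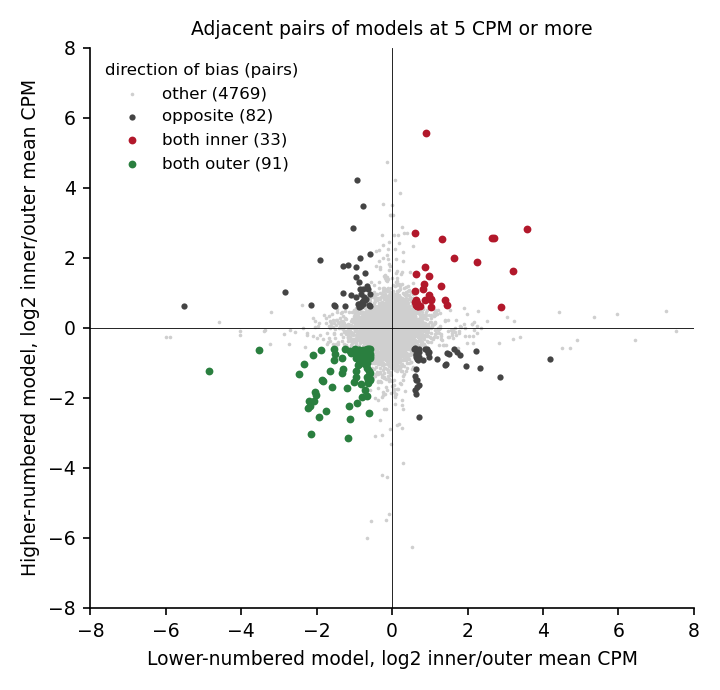
Log2 ratio of inner over outer mean CPM for the lower-numbered (horizontal) and higher-numbered (vertical) gene model of each of 4975 adjacent pairs. Red points are the 33 pairs higher in inner pericarp, green the 91 pairs higher in outer pericarp, black the 82 opposite pairs and grey the remaining pairs, which lie around 0 and along both axes.

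Neighbours with the same direction were alike in coding length more often than other neighbours. The rule that chose the members did not use coding length itself. The outer libraries did differ with coding length, as given below, and the part of this in the likeness of lengths was not tested. In 27 of 124 member pairs (21.8%) the longer coding length was at most 1.1 times the shorter, against 9.76% of the 82 opposite pairs, 9.20% of the pairs with 1 biased gene model and 9.79% of all 4975 adjacent pairs. The share was similar in both directions, with 7 of 33 inner pairs (21.2%) and 20 of 91 outer pairs (22%). The median length quotient was 1.503 in member pairs and 1.818 in all adjacent pairs. By direction it was 1.431 in outer pairs but 1.923 in inner pairs, above that of all adjacent pairs. Equal lengths occurred in 2 member pairs and in 17 adjacent pairs overall.

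Read the other way, 27 of the 487 adjacent pairs of like length were biased the same way (5.54%, exact 95% interval 3.69% to 7.96%), compared with 97 of the 4488 pairs of unlike length (2.16%, 1.76% to 2.63%). Opposite bias came to nearly the same share in both, at 1.64% and 1.65%. Pairs of like length that stood 2 to 20 numbers apart were biased the same way in 2.02% of 5540 pairs, close to the 1.89% of 58917 pairs of unlike length at those distances. The higher share was thus seen in pairs that were both adjacent and alike in length. It declined in steps from 5.54% up to a quotient of 1.1, to 3.47% and then 2.08% in the next classes of the plot by length quotient, and lay between 1.72% and 2.27% in the classes beyond. With TMM sizes the like-length share was 4.48% and the unlike-length share 2.04%; without each library in turn they were 4.74% to 7.19% and 2.26% to 3.77%, and the first exceeded the second in every one of these fits. Pairs that overlap in a gene model are not independent, and the intervals cover counting error only.

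**Figure D4:**
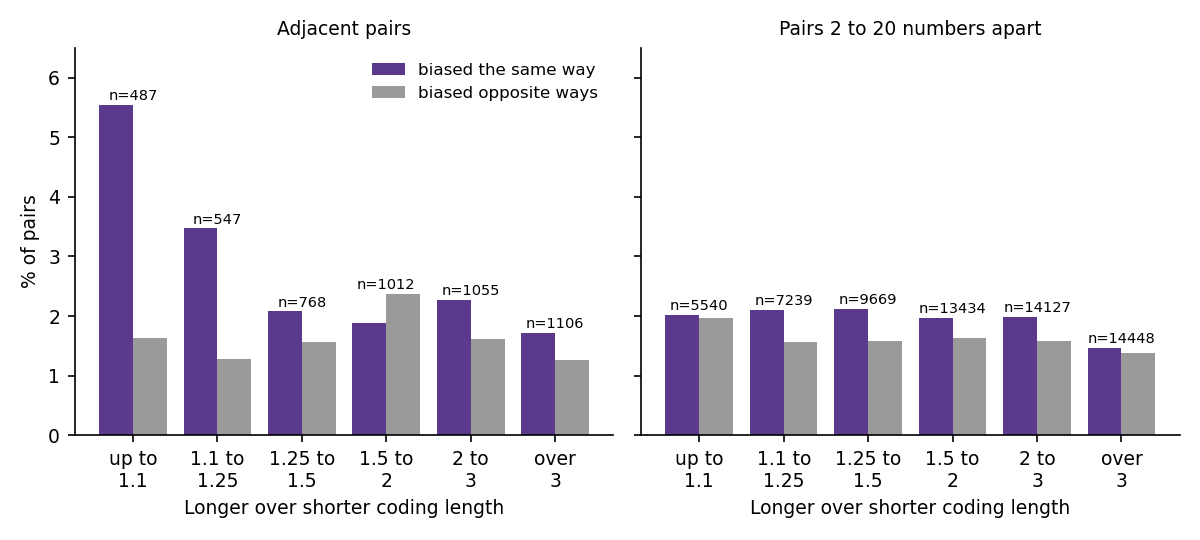
Share of pairs (%) biased the same way (purple) or in opposite ways (grey) by the quotient of the longer over the shorter coding length, for adjacent pairs (left) and pairs 2 to 20 numbers apart (right), both gene models at 5 CPM or more; n is the number of pairs. Adjacent pairs of like length stood at 5.54%, while the same-way bars at 2 to 20 numbers apart lay between 1.47% and 2.12%.

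The gene models of a like-length member pair were not always used at like levels. Per kilobase of coding length, the levels averaged over the 4 libraries were within 3-fold of each other in 15 of the 27 pairs and more than 10-fold apart in 6. Over all 487 adjacent pairs of like length they were within 3-fold in 54.6%, close to the share in member pairs, and more than 10-fold apart in 69. Like-length member pairs were not more alike in fold either. The inner-to-outer ratios differed by less than 1.5-fold in 15 of the 27, against 70 of 97 member pairs of unlike length. Over all adjacent pairs these counts were 320 of 487 and 2910 of 4488. How reads that match near-identical copies were assigned is not given in the sources used here. Where a pair consists of such copies, its counts could be divided between them, and both values are then uncertain. The part of such division in the shared direction was not tested.

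The longest inner-higher run held 3 gene models, in identifier group 22, with folds between 1.53 and 2.08. Its most abundant adjacent pair was Ach22g341531.1 (coding length 1638 bases) and Ach22g341541.1 (762 bases). Ach22g341531.1 was at 65.5 and 66.3 CPM in the inner libraries and at 40.7 and 41.3 CPM in the outer ones, a 1.61-fold difference. Ach22g341541.1 was at 56.5 and 56.0 CPM in inner and 39.3 and 34.4 CPM in outer pericarp, a 1.53-fold difference. The third gene model (1008 bases) was at 15.4 and 15.9 CPM in inner and 7.57 and 7.46 CPM in outer pericarp, or 2.08-fold. In each of them the libraries of a tissue lay close together and the tissues stood apart by choice. The run stayed whole under the other scalings but not without outer pericarp replicate 2.

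The longest outer-higher run held 4 gene models, in identifier group 23, and 3 of them shared nearly the same fold. Ach23g267911.2 (1578 bases) was at 777 and 1101 CPM in outer and at 236 and 207 CPM in inner pericarp, a 4.24-fold difference. Ach23g267921.2 (483 bases) was at 286 and 429 CPM in outer and at 86.6 and 81.0 CPM in inner pericarp, a 4.27-fold difference. The gene model before them (1587 bases, against 1578 for its neighbour) was at 83.8 and 121 CPM in outer and 24.3 and 19.9 CPM in inner pericarp, or 4.63-fold. These 3 were all higher in outer pericarp replicate 2 than in replicate 1. The last gene model of the run (1650 bases) was only 1.73-fold higher in outer pericarp, with 41.7 and 35.4 CPM against 20.8 and 23.8 CPM, and was the lower one in replicate 2. Per kilobase of coding length in outer pericarp, the middle pair stood at 595 and 740 CPM and the gene models at the ends at 64.5 and 23.4 CPM. The run stayed whole under the other scalings and without any single library.

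**Figure D5:**
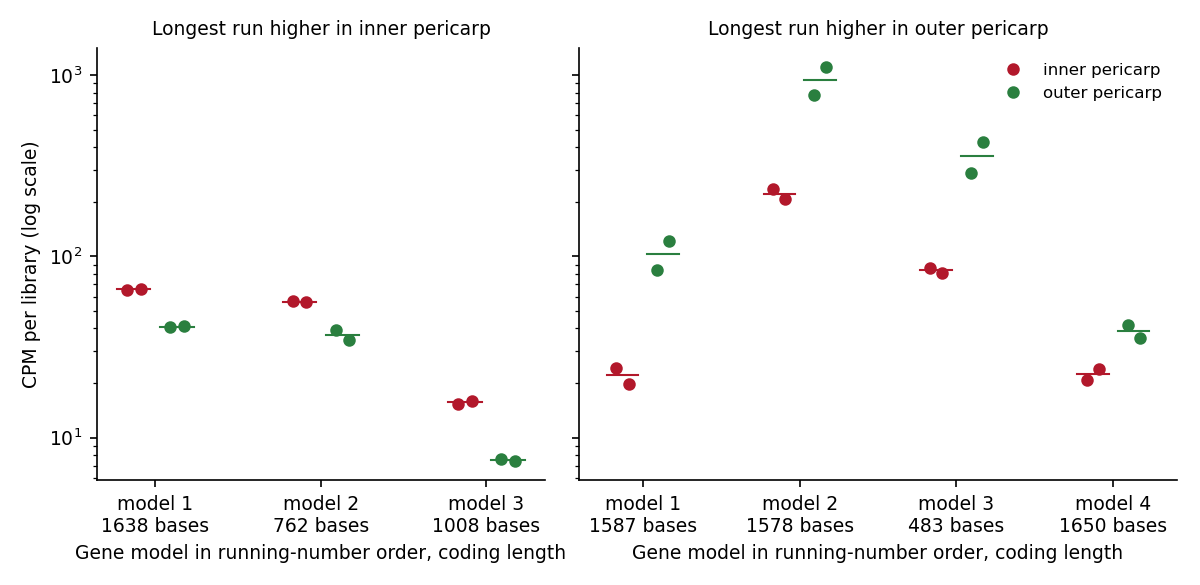
CPM in each library (points, log axis) and tissue mean (lines) for the gene models of the longest inner-higher run (left, 3 gene models) and the longest outer-higher run (right, 4 gene models); red is inner and green outer pericarp, with 2 libraries each. The first 3 gene models of the outer run stood 4.24- to 4.63-fold higher in outer pericarp, and those of the inner run 1.53- to 2.08-fold higher in inner pericarp.

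Further inner-higher runs were pairs, and the most abundant combined a very highly expressed gene model with a far weaker one. In group 11 the higher-numbered gene model (1137 bases) was at 11273 and 11466 CPM in inner and 3542 and 3885 CPM in outer pericarp, or 3.06-fold. Its lower-numbered neighbour (915 bases) was at 240 and 233 CPM against 18.5 and 32.3 CPM, or 9.31-fold. Per kilobase they stood at 10000 and 258 CPM in inner pericarp, and the weaker gene model had the larger fold. In group 02 a gene model of 1821 bases was at 9641 and 9838 CPM in inner and 6187 and 6131 CPM in outer pericarp (1.58-fold), next to one of 549 bases at 86.3 and 85.0 CPM against 50.2 and 57.6 CPM (1.59-fold); this pair was lost without outer pericarp replicate 1. Together these pairs account for most of the 2.58% ± 0.027 of inner counts that the inner-higher members held, beside 1.17% ± 0.0095 of outer counts (SD, n = 2 each).

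Pairs with large folds in both gene models were mostly short or of modest level. In group 06, gene models of 234 and 210 bases were 12.0-fold and 7.11-fold higher in inner pericarp. The longer was at 310 and 305 CPM in inner and 24.3 and 26.8 CPM in outer pericarp, and the shorter at 136 and 125 CPM against 19.02 and 17.6 CPM. In group 17, both gene models of a pair had a coding length of 264 bases, and their folds were 6.48 and 5.90. The first was at 21.5 and 21.6 CPM in inner and 2.64 and 4.02 CPM in outer pericarp, the second at 14.5 and 20.04 CPM against 3.17 and 2.68 CPM. In group 03, gene models of 1146 and 693 bases were 6.24-fold and 5.91-fold higher in inner pericarp, at means of 38.8 ± 1.8 and 59.0 ± 4.6 CPM (SD, n = 2). These 3 pairs stayed whole under the other scalings and without any single library.

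The pair with the largest mean fold, in group 16, owed it to 1 gene model with hardly any outer counts. That gene model (1062 bases) had 63 and 81 counts in inner and 3 and 0 counts in outer pericarp. Its tissue means differed 47.5-fold, the value used for the mean fold. The depth-scaled ratio of its summed counts was 45.7, with a counting interval of 15.3 to 224. The neighbouring gene model (2238 bases) had 94 and 99 counts against 51 and 48, or 1.85-fold. Among the most abundant inner pairs were also a gene model of 1212 bases in group 13, at 1003 ± 8.7 CPM in inner and 302 ± 60 CPM in outer pericarp (SD, n = 2; 3.32-fold), beside one 1.84-fold higher at 15.3 ± 2.6 CPM. In group 25, gene models at 812 ± 28 and 49.2 ± 2.7 CPM in inner pericarp (SD, n = 2) were 2.04-fold and 1.52-fold higher. The pair in group 25 was lost when either inner pericarp replicate 1 or outer pericarp replicate 2 was left out.

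In the most abundant outer-higher pair both gene models were alike in length, level and fold. In group 17, neighbours of 1002 and 939 bases were 2.52-fold and 2.45-fold higher in outer pericarp. The first was at 3557 and 3822 CPM in outer and 1473 and 1456 CPM in inner pericarp, and the second at 4260 and 4365 CPM against 1782 and 1739 CPM. Per kilobase they stood at 3682 and 4592 CPM in outer pericarp. The pair stayed whole under the other scalings and without any single library.

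Other abundant outer pairs were uneven. In group 09, a gene model of 1659 bases was at 1374 and 1641 CPM in outer and 539 and 492 CPM in inner pericarp (2.92-fold), next to one at 62.5 and 48.8 CPM against 35.8 and 37.7 CPM (1.51-fold). In group 26, gene models of 3726 and 3633 bases, of like length, were at 401 ± 48 and 18.0 ± 0.010 CPM in outer pericarp (SD, n = 2) and 1.503-fold and 2.78-fold higher there. Both pairs were lost under TMM and median-of-ratios sizes and without inner pericarp replicate 1. The pair of group 09 was also lost without outer pericarp replicate 1, and that of group 26 without outer pericarp replicate 2. In group 25, a short gene model of 228 bases was at 1018 and 1017 CPM in outer and 140 and 196 CPM in inner pericarp (6.07-fold). Its neighbour of 576 bases was at 7.22 and 5.74 CPM against 3.18 and 2.76 CPM (2.18-fold).

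In the 5 outer pairs with the largest mean folds every gene model was below 100 CPM in outer pericarp. In group 03, a gene model of 555 bases had 0 counts in both inner libraries and 54 and 30 in the outer ones. Its outer mean was 29.1-fold above the floor of 3 counts, a value set by that floor. The neighbour of 2412 bases was at 53.2 and 70.6 CPM in outer and 28.1 and 25.1 CPM in inner pericarp, or 2.33-fold. The mean fold of this pair, 8.24 and the largest among outer runs, thus rests on the floor. The gene model of 555 bases was the only member with 0 counts in its lower tissue. In group 00, gene models of 558 and 324 bases were 4.41-fold and 8.18-fold higher in outer pericarp, with 65 and 77 counts against 17 and 17, and 52 and 57 counts against 9 and 5. Another pair in group 00, of 1083 and 615 bases, was 4.67-fold and 4.92-fold higher. In group 06, neighbours of 1443 and 1407 bases were at 40.8 ± 2.1 and 57.3 ± 12 CPM in outer pericarp (SD, n = 2), 3.87-fold and 5.81-fold above inner pericarp. In group 21, neighbours of 711 and 720 bases were 4.51-fold and 4.67-fold higher, but the first had 17 and 75 counts in the outer libraries and the pair was lost without outer pericarp replicate 2.

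As a group, the members were of middling abundance and modest fold. Inner-higher members had a median of 24.5 CPM in inner pericarp (range 5.04 to 11370) and a median fold of 1.91, and outer-higher members a median of 22.1 CPM in outer pericarp (range 5.03 to 4312) and a median fold of 1.85. All gene models at 5 CPM or more had a median of 21.9 CPM in their higher tissue and a median fold of 1.21 in either direction. Biased gene models with no like-biased neighbour had median folds of 1.81 in the inner and 1.78 in the outer direction, and median levels of 16.6 and 16.4 CPM. At least 4-fold differences occurred in 13 of 65 inner members (20%) and 22 of 180 outer members (12.2%), against 8.77% and 5.30% of the biased gene models without such a neighbour. Over all gene models at 5 CPM or more the share was 1.4%. That every biased gene model differed at least 1.5-fold follows from the choice. Members and the other biased gene models had passed the same limits of fold and level. Their folds are given as a description, and the difference between these sets was not tested. Median coding length was 834 bases in inner and 1190 bases in outer members, beside 1218 bases in all gene models at 5 CPM or more.

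Some members lay close to the limits. The lowest fold was 1.504 among inner and 1.501 among outer members, and the closest gene model beside a biased one that missed the limit stood at 1.496 in both directions. Folds under 1.6 were found in 17 inner and 41 outer members. The least abundant members were at 5.04 and 5.03 CPM, while the closest gene models below the limit were at 4.54 CPM beside an inner-biased and 4.998 CPM beside an outer-biased gene model.

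The members were spread over 29 of the 30 identifier groups, and no run was longer than 4. Outer-higher members occurred in 29 groups and inner-higher members in 19, and 119 of the 121 runs were pairs. Group 00 held 36 members, 1.43% of its 2513 gene models at 5 CPM or more, against 1.65% over all groups. The highest shares were 3.69% in group 09 and 3.45% in group 21, and group 14 had no member. A run ends, by its definition, where the next gene model is not biased the same way. Of the 64 gene models or gaps flanking inner runs, 18 were not in the table, 26 were below 5 CPM, 4 were biased to outer pericarp and 16 were not biased. Of these 16, 10 leaned to inner pericarp (62.5%), where 43.7% of all 12046 gene models without bias did so. Around outer runs 31 of 58 unbiased flanking gene models leaned to outer pericarp (53.4%), against 56.3% of all.

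Within a tissue, the ratio of a gene model's libraries was compared between neighbours, as a description. The log2 ratio of replicate 1 over replicate 2 in outer pericarp had a Pearson's r of -0.07 between neighbours in 91 outer pairs and 0.02 in 4968 adjacent pairs. In inner pericarp it was 0.16 in 33 inner pairs and 0.00 in 4968 adjacent pairs. These values were near 0 except in inner-higher pairs. There the outer libraries gave an r of 0.45 and a rho of 0.51 over 32 pairs, with the same sign in 23 of 33 pairs (69.7%), against 53.4% over all adjacent pairs. The 33 include a pair left out of the correlation, in which a gene model had 0 counts in outer pericarp replicate 2. Of the 64 inner-higher members with counts in both outer libraries, 6 differed over 2-fold between them. Among all gene models at 5 CPM or more with such counts, 289 of 14840 did so, a smaller share. The outer libraries themselves differed with coding length: replicate 1 over replicate 2 had a median log2 ratio of 0.11 below 500 bases and -0.28 at 2000 bases or more among gene models at 5 CPM or more. Among outer members it was -0.13 in all, -0.01 in the 17 below 500 bases and -0.34 in the 20 of 2000 bases or more. The part of this difference between the outer libraries in the counts of members was not tested.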

How the data were processed

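Read counts per gene model were deposited by the authors as whole numbers with 1 column per library, per the file headers, and were used as deposited. The deposited table also lists a length per gene model, which was a multiple of 3 in 100% of rows and is called coding length. The submitters' processing notes name DESeq, without version or role. For aligner, counting program, strand handling, genome build and annotation, no statement is given in the sources used here. Tissue was taken from the sample characteristics, and replicate numbers follow deposit order and pair nothing.

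CPM, tissue means and SDs, bias and runs were computed in Python 3.11.15 with pandas 2.3.3. The neighbour search was tested on simulated data. Where a tissue had 0 counts, folds used a floor of 3 counts over its 2 libraries. Scaling alternatives used TMM sizes from edgeR 4.0.16 and median-of-ratios sizes from DESeq2 1.42.0; neither tool was used for a test. Since the members were chosen on the tissue contrast, no test of it is given; an exact permutation test of 2 against 2 libraries cannot go below p = 0.333. The members, limits and lists were chosen with earlier results of these data known, and the comparison by coding length was split at a quotient of 1.1 after the files were seen. Lists of pigment, seed, skin and chloroplast genes were to be matched by name; with no names in the file none could be used. For the same reason at most 2 identifiers are printed in each direction, the most abundant adjacent pair of the longest run. Other runs are described by identifier group: the 5 longest, the 5 with the highest mean fold and the 5 most abundant in each direction. Alternatives were other scalings, limits, definitions of a neighbour, and leaving out each library.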

Additional observations from a re-analysis of the deposited data

How the results depend on the processing

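Values are members in all, inner-higher, outer-higher and runs, which were 245, 65, 180 and 121, followed by the share of biased gene models that were members, 8.74%. Only the direction counts moved past 1.5-fold with TMM sizes (112 and 112), median-of-ratios sizes (108 and 112) or Ach00g022471.2 kept in the totals (125 and 86). A minimum of 1 CPM gave 661, 190, 471, 318 and 13.8%, and one of 10 CPM gave 151, 47, 104, 74 and 7.64%. Requiring 2-fold gave 61, 16, 45, 30 and 6.46%. Allowing numbers to differ by 1 or 2 gave 435, 140, 295, 209 and 15.5%, and taking the next listed gene model whatever the gap gave a share of 10.9%. With 1 library left out at a time there were 244 to 402 members, 65 to 137 inner-higher, 154 to 320 outer-higher, 120 to 196 runs and shares of 8.50% to 11.3%; each such fit sets the rule on 1 library for a tissue. Of the 245 members, 106 were chosen in each of the 4 fits without a library (28 inner-higher, 78 outer-higher), and 14 of 32 inner and 36 of 89 outer runs stayed whole in these and in both other scalings. No shared member changed direction in any alternative, an outcome that the bias rule largely fixed beforehand. Letting libraries overlap and leaving out identifier group 00 moved none of these counts past 1.5-fold. Keeping 1 gene model per number gave identical values and is no check on them. The like-length comparison under other scalings and libraries was chosen after seeing the data. For each of these the cause was not tested. Depth limits the folds of members with few counts in their lower tissue.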
